A study of Mus musculus with 18 samples.

Results

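Cultured heart fibroblasts (HFc) and cultured tail fibroblasts (TFc) were compared across all genes, with 3 libraries per group, which are 6 of the 18 libraries of the series. Of the 38924 genes in the table, 16577 had enough counts to be tested. Both cultures carried the genes of fibroblasts, with means of 5064 and 5273 CPM of *Vim*, 6007 and 7701 CPM of *Col1a1* and 178 and 127 CPM of *Pdgfra* in HFc and TFc. The cells came from the heart and the tail of 10-week-old male mice on a C57BL/6 background that carry the *Rosa* mT/mG reporter, an allele that makes every cell of the donor, in all groups of the series alike, produce membrane-bound tdTomato. They were grown for 10 days and collected, and the cells that were not transplanted were plated again and kept for 3 further days without any treatment. Cultured kidney fibroblasts (KFc) were prepared in the same way. Heart, kidney and tail cells recovered 3 days after transplantation under the kidney capsule formed the remaining groups (HFs, KFs and TFs). The recipients were young adult, syngeneic C57BL/6J mice. The study sorted the transplanted cells as live cells with tdTomato and without CD45, a sort it does not describe for the cultured cells. Cultured and transplanted groups may therefore differ in sorting as well as in surroundings. The comparison asks which genes separate fibroblasts of a thoracic organ from those of the tail after a shared period on plastic. The study calls the libraries of a condition biological replicates. Whether they came from separate animals or from separate cultures is not given in the sources used here, and p-values measure the spread between these libraries. Whether the cultured controls had been sorted for CD90 and against CD45 and CD31 is not stated clearly for this experiment.

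Fibroblasts make and remodel the extracellular matrix of connective tissue, and they carry a record of where in the body they arose. Resident fibroblasts of the heart descend mainly from the epicardium, the mesothelial sheet that covers the heart, and share with heart muscle several transcription factors of heart development such as *Tbx20*, *Gata4* and *Hand2*. Positional information along the body axis is held in the *Hox* genes, which lie in 4 clusters and are used in order, from paralog 1 in anterior parts of the embryo to paralog 13 at its posterior end. The mouse tail holds skin, bundles of tendon, vertebrae, discs and joints, whose connective tissue cells make specialised matrix proteins.

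Library totals lay between 21513442 and 31534743 counts in HFc and between 21616781 and 32245168 counts in TFc. Libraries of a group resembled each other closely, with Pearson's r of edgeR's log2 CPM (with a small prior count) of 0.982 to 0.985 within groups against 0.899 to 0.901 between HFc and TFc libraries (CPM stands for counts scaled to 1000000 per library, after TMM scaling). The median coefficient of variation among genes of at least 10 CPM was 4.8% in HFc and 4.99% in TFc, against 9.24% in HFs and 8.02% in TFs. KFs replicate 3, which entered the comparison through the shared filter, scaling and estimate of the spread, stood apart. In it 4 Y-linked genes summed to 0.722 CPM, against between 175 and 229.9 CPM in the other 17 libraries. Without this library 3546 of 16923 genes tested were called, in place of 3237 of 16577.

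The difference between the cultures was wide. Of the 16577 genes, 1366 (8.24%) were higher and 1871 (11.3%) lower in HFc than in TFc, 19.5% in either direction, where a call needed a Benjamini-Hochberg adjusted p under 0.05 in edgeR's quasi-likelihood test and a fold change above 2 (a log2 fold change above 1 or below -1). The counts of gene lists below are to be read beside these shares. At an unadjusted p under 0.05 there were 8128 genes, and DESeq2 made 3454 calls by the same thresholds. Protein-coding genes made up 1245 of the higher and 1707 of the lower genes, and genes of long noncoding types 77 and 103. The fold change exceeded 8 for 436 higher and 660 lower genes. For 176 higher and 286 lower genes every library of the other group was at or under 3 counts, which was taken as the limit of detection and covers counting error only. For such genes the fold was computed against 3 counts per library and is given as "at least". The 3 HFc and the 3 TFc values did not overlap for 10292 genes, of which 3193 were called.

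**Figure D1:**
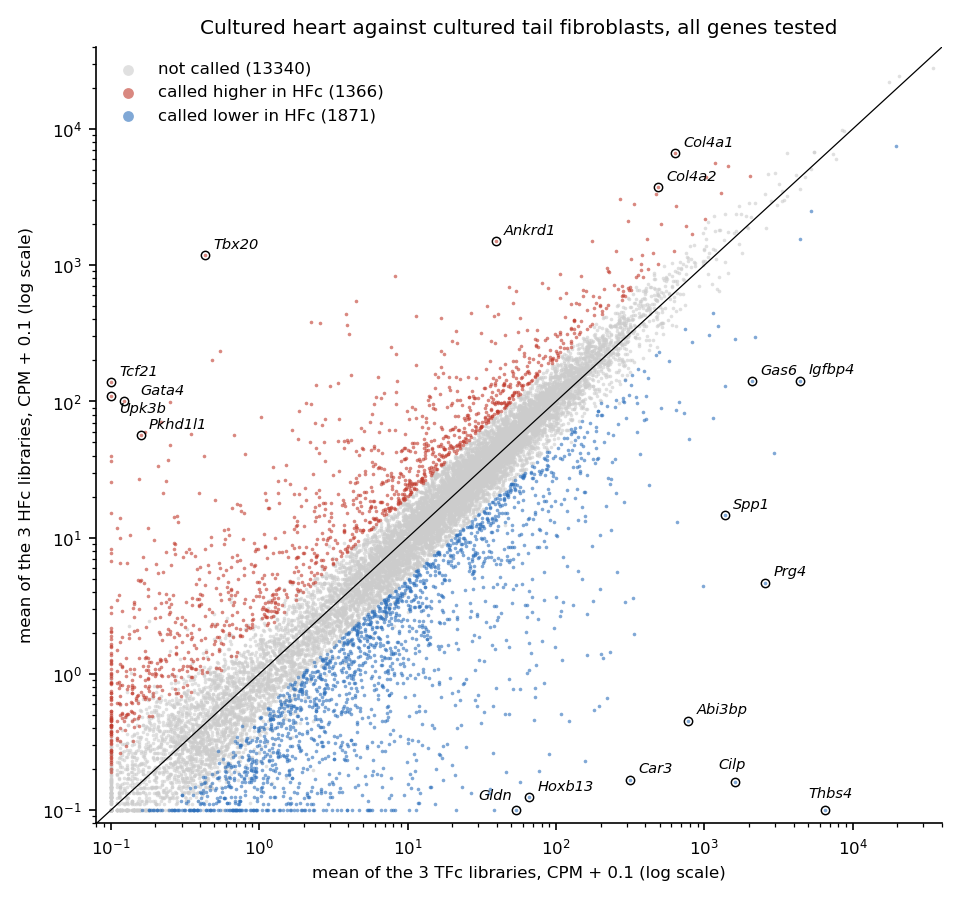
Mean CPM in HFc (vertical) against mean CPM in TFc (horizontal) for the 16577 genes tested, on log axes after adding 0.1 CPM, with the 1366 genes called higher and the 1871 called lower in HFc coloured. *Thbs4* and *Cilp* lie at the bottom right, with means of 6539 and 1609 CPM in TFc, and *Tbx20*, *Tcf21* and *Upk3b* at the top left.

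Several transcription factors of heart development were high in HFc and close to absent from TFc. *Tbx20*, a T-box factor of heart development, had 1177, 1223 and 1155 CPM in the HFc libraries and 0.148, 0.314 and 0.526 CPM in the TFc libraries. Every HFc value lay far above every TFc value, and the log2 fold change was 11.88 (SE 0.34, adjusted p = 3.17e-12). *Gata4*, a zinc finger factor required for heart formation, had 104, 99.9 and 98.9 CPM in HFc and at most 1 count in each TFc library, a difference of at least 895-fold (adjusted p = 7.73e-11). *Hand2*, a helix-loop-helix factor of the heart and the limb bud, had 56.4, 59.4 and 63.8 CPM in HFc against 0.119, 0 and 0.0877 CPM in TFc, a 769.7-fold difference (log2 9.59, SE 0.39, adjusted p = 5.77e-11). These 3 factors were also close to 0 in cultured kidney fibroblasts, with means of 0.0567, 0.246 and 0.195 CPM. They were also read after transplantation, at 372 to 448 CPM in HFs for *Tbx20*, 59.3 to 69.6 CPM for *Gata4* and 37.3 to 41.7 CPM for *Hand2*, against 0.0848 to 0.214, 0 to 0 and 0 to 0.136 CPM in TFs.

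Over the whole list of 34 cardiac transcription factors, 29 were tested, 12 were higher and 3 were lower in HFc (8.24% and 11.3% over all genes), and the median log2 fold change was 0.57 (-0.01 over all genes tested). *Heyl*, a repressor downstream of Notch, had 10.5, 10.4 and 10.4 CPM in HFc and 0.0594, 0 and 0.0438 CPM in TFc, at least 92.6-fold (adjusted p = 4.28e-08). *Gata6*, *Tbx5* and *Tbx18*, which were chosen after their values were seen, were higher as well. *Gata6*, a relative of *Gata4*, had means of 26 CPM in HFc and 1.24 CPM in TFc (log2 4.38, adjusted p = 3.1e-09), and it was also present in KFc at 15.3 CPM. *Tbx5*, a factor of the heart and the forelimb, stood at 2.03 against 0.145 CPM (log2 3.88, adjusted p = 0.00188), and *Tbx18*, a factor of the sinus node and the epicardium, at 89.9 against 14.6 CPM (log2 2.62, adjusted p = 5.29e-07). The 3 lower factors were *Tbx3* (2.8 against 12.2 CPM, log2 -2.12, adjusted p = 0.00144), *Irx3* (1.51 against 15.9 CPM, log2 -3.38, adjusted p = 0.00391) and *Irx5* (2.36 against 11.9 CPM, log2 -2.34, adjusted p = 0.00355), which are known in the heart for the conduction system and in the limb and skin for patterning. The MADS-box factors *Mef2a* and *Mef2d*, present in many cell types, differed by -0.18 (adjusted p = 0.22) and -0.01 (adjusted p = 0.933) on the log2 scale and were not called.

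Many genes of the epicardium and of mesothelium in general were high in HFc and at or near 0 in TFc. *Tcf21*, a helix-loop-helix factor that marks epicardial cells and the fibroblasts that come from them, had 129, 134 and 152 CPM in HFc and 0 in all TFc libraries, at least 1226-fold (adjusted p = 1.22e-06). *Upk3b*, a uroplakin of mesothelial cells, had 109, 109.8 and 111 CPM against 0, at least 974-fold (adjusted p = 3.45e-08). *Lrrn4* had 42.7, 36.5 and 39.9 CPM, *Upk1b* 25, 25.5 and 25.8 CPM and the zinc finger factor *Bnc1* 15.5, 15.5 and 14.3 CPM, all against 0 in the TFc libraries. The lower bounds of these 3 folds were 352, 226 and 134. *Gpm6a*, a membrane glycoprotein, averaged 48.1 CPM in HFc and 0.152 CPM in TFc (log2 8.30, adjusted p = 4.45e-07). *Aldh1a1* and *Aldh1a2*, enzymes that make retinoic acid, averaged 827 and 61.2 CPM in HFc against 8.13 and 1.57 CPM in TFc (log2 6.67, SE 0.67, and 5.28, SE 0.54). *Wt1*, the classical epicardial factor, was low in HFc at 1.09, 1.18 and 0.983 CPM and lower still in TFc at 0, 0 and 0.0438 CPM, at least 9.64-fold (adjusted p = 3.23e-06), and it was highest of the 3 cultures in KFc at 23 CPM.

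Of 20 epicardial genes tested, 15 were higher in HFc and 1 was lower, with a median log2 fold change of 5.64, or 4.19 with 7 members set at their lower bounds. *Wt1*, *Tcf21* and *Tbx18* are members of this list and of the list of cardiac factors. The lower gene was *Bnc2*, the relative of *Bnc1*, at 15.4 against 32.5 CPM (log2 -1.08, adjusted p = 1.62e-05). Of the keratins, which mesothelial cells in an epithelial state contain and which were chosen after their values were seen, *Krt8* averaged 0 and 0.0428 CPM, *Krt18* 0.057 and 0 CPM, and *Krt19* averaged 2.78 CPM in HFc and 4.82 CPM in TFc and was not called (adjusted p = 0.159). In a bulk library, fewer cells of a type and less RNA per cell cannot be told apart, so the share of HFc cells that carried *Upk3b* or *Lrrn4* RNA is not known. The genes of this list parted after transplantation. *Tcf21* still had 67.2 to 88.5 CPM in HFs, whereas *Upk3b* had 0.481 to 2.16 CPM, *Lrrn4* 0.18 to 1.86 CPM and *Upk1b* 0 to 0.456 CPM in HFs, with 0 in every TFs library for all 4 genes.

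**Figure D2:**
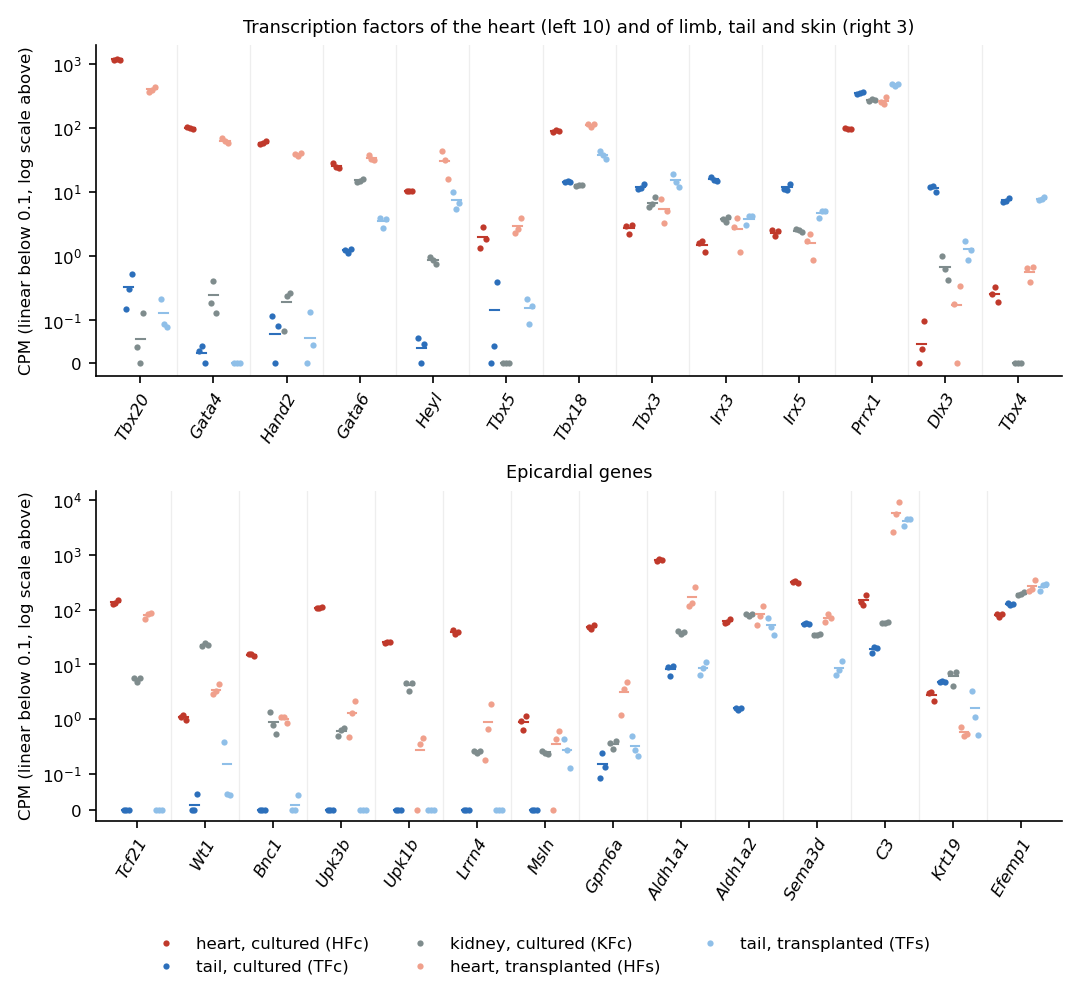
CPM of single libraries (points) and group means (bars) of transcription factors (upper panel) and epicardial genes (lower panel) in HFc, TFc, KFc, HFs and TFs, on an axis that is linear below 0.1 CPM and logarithmic above. *Tbx20*, *Gata4* and *Tcf21* are high in both heart groups, *Upk3b*, *Lrrn4* and *Upk1b* are high in HFc and under 3 CPM in HFs, and *Prrx1*, *Dlx3* and *Tbx4* are higher in TFc than in HFc.

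Others of the 10 genes with the largest rises in HFc belong to none of the lists above. *Hecw1*, a ubiquitin ligase, had 38.6, 36.6 and 34.1 CPM in HFc and 0 in TFc (at least 323-fold, adjusted p = 4.93e-09). *Pkhd1l1*, a large membrane protein related to fibrocystin, had 54.8, 59.4 and 56.4 CPM in HFc and at most 0.089 CPM in TFc (at least 504-fold, adjusted p = 1.35e-05). *Pdlim3*, an actinin-binding LIM protein of muscle Z-discs, had 10.9, 12.1 and 18.4 CPM in HFc and at most 1 count in a TFc library (at least 122-fold, adjusted p = 6.96e-08). Each of these genes was low in kidney cultures, with means of 2.06, 0.79 and 0.148 CPM. A list of heart-enriched genes that the study had drawn from microarrays of other samples had 28 higher and 0 lower of 38 tested (0 at an unadjusted p under 0.05 and 0 by DESeq2). The study had chosen these genes for a rise of at least 10-fold over tail fibroblasts. A direction toward HFc was therefore built into the list, and its counts are no independent sign of heart identity. Its members with large differences included *Rhox5*, a homeobox gene of the X chromosome, at 9.92 against 0.0146 CPM (at least 88-fold), the Wnt antagonist *Frzb* at 184 against 11.3 CPM (log2 4.03), the integrin subunit *Itga4* at 221 against 8.22 CPM (log2 4.75, SE 0.15, adjusted p = 8.74e-12) and the kinase *Bmx* at 12.9 against 0.184 CPM (log2 6.23).

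Transcription factors of the limb, the skin and the somites differed in the other direction. Of 28 tested, 16 (57.1%) were lower and 3 (10.7%) higher in HFc, against 11.3% and 8.24% over all genes, so the share of higher factors was near that over all genes. The median log2 fold change was -1.87 (-1.59 with 3 members at their bounds). *Prrx1*, a homeobox factor of limb mesenchyme, had 100.2, 97.6 and 96.4 CPM in HFc against 347, 353 and 362 CPM in TFc (log2 -1.85, adjusted p = 0.000141), and its relative *Prrx2* 1.92 against 62.3 CPM (log2 -5.03, SE 0.44). *Tbx4*, the T-box factor of the hindlimb, averaged 0.263 CPM in HFc, 7.47 CPM in TFc and 0 in KFc. Among the Dlx homeobox genes, *Dlx3* had 0.044 against 11.6 CPM (at least 97.4-fold lower), *Dlx4* 0.149 against 2.82 CPM and *Dlx5* 0.0451 against 3.39 CPM. *Twist1* and *Trps1*, regulators of mesenchyme and of skeletal growth, were lower too (log2 -2.31 and -2.16). The 3 factors that were higher in HFc were *Pax3* (18.8 against 4.17 CPM, adjusted p = 1.86e-06), *Shox2* (17.1 against 3.68 CPM, adjusted p = 0.000399) and *Lhx9* (3.86 against 0.111 CPM, adjusted p = 0.000246), known in the embryo from neural crest and somites, from the sinus node and limb, and from limb and gonad.

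*Hox* genes differed in nearly every member that could be tested. Of 38 genes, 34 were tested, 28 were lower and 2 higher in HFc, with a median log2 fold change of -5.43 (-4.76 with 17 members at their bounds). Nearly all tested genes of cluster A, and all tested genes of clusters B and C, were lower in HFc. The summed level of cluster A was 2.56 to 2.99 CPM in the HFc libraries against 46.6 to 54.5 CPM in TFc, that of cluster B 3.83 to 7.29 against 169 to 173 CPM, and that of cluster C 2.26 to 3.43 against 109.2 to 123 CPM. Cluster D was near 0 in tail cells. It summed to 0.0594 to 0.51 CPM in TFc and to 2.23 to 3.35 CPM in HFc, and its higher members were *Hoxd8* (2.22, 1.35 and 1.47 CPM in HFc against 0, 0.235 and 0.132 CPM in TFc, adjusted p = 0.000141) and *Hoxd9* (0.497 against 0.0262 CPM, adjusted p = 0.00431).

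The difference was present along the whole length of the clusters. Paralogs 9 to 13 summed to 249 to 257 CPM in TFc and 2.95 to 4.81 CPM in HFc, paralogs 5 to 8 to 55.1 to 62.7 against 2.23 to 3.46 CPM, and paralogs 1 to 4 to 29.7 to 30.3 against 5.7 to 8.78 CPM. *Hoxb13* had 68.1, 65 and 65 CPM in TFc and 2 counts in all HFc libraries together, at least 553-fold lower in HFc (adjusted p = 3.09e-10). *Hoxb9* had 50.2, 49.6 and 44.2 CPM in TFc against 0.619, 0.406 and 0.197 CPM in HFc (log2 -6.81, SE 0.40), *Hoxc12* 23.3, 20.8 and 19.5 CPM against 0, and *Hoxc10* 25.8, 26.3 and 28.3 CPM against a mean of 0.0328 CPM. *Hoxa13* and *Hoxa10* averaged 11.6 and 14 CPM in TFc and 0.0121 and 0.0486 CPM in HFc. *Hoxc13* was still read in HFc, at 2.99, 2.5 and 2.06 CPM, against 42.6, 36.8 and 41.7 CPM in TFc (log2 -3.99, SE 0.28, adjusted p = 1.99e-08). The HFc libraries were not void of *Hox* RNA at the anterior end. *Hoxb4*, *Hoxb2* and *Hoxb3* averaged 1.9, 1.52 and 1.21 CPM in HFc and 8.62, 5.01 and 7.56 CPM in TFc.

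Kidney cultures had a pattern of their own, given here as values only. KFc had the highest sums of paralogs 1 to 4 (76.7 to 82.2 CPM) and of paralogs 5 to 8 (261 to 274 CPM), and less of paralogs 9 to 13 (155 to 161 CPM) than TFc. *Hoxb13* and *Hoxa13*, at 66 and 11.6 CPM in TFc, averaged 0.0233 and 0 CPM in KFc. Several noncoding RNAs of the clusters, chosen after their values were seen, were lower in HFc too. *Hotairm1* of cluster A was not called, at 1.02 CPM in HFc and 0.888 CPM in TFc (log2 0.20, adjusted p = 0.727). *Hotair*, transcribed within cluster C at chr15:102944062-102947730 (GRCm38, minus strand), had 0 counts in HFc and a mean of 2.58 ± 0.543 CPM in TFc (SD, n = 3; at least 21.6-fold), and *Hottip*, next to *Hoxa13* at chr6:52262775-52267603 (plus strand), 0 against 0.605 ± 0.258 CPM (at least 5.07-fold).

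**Figure D3:**
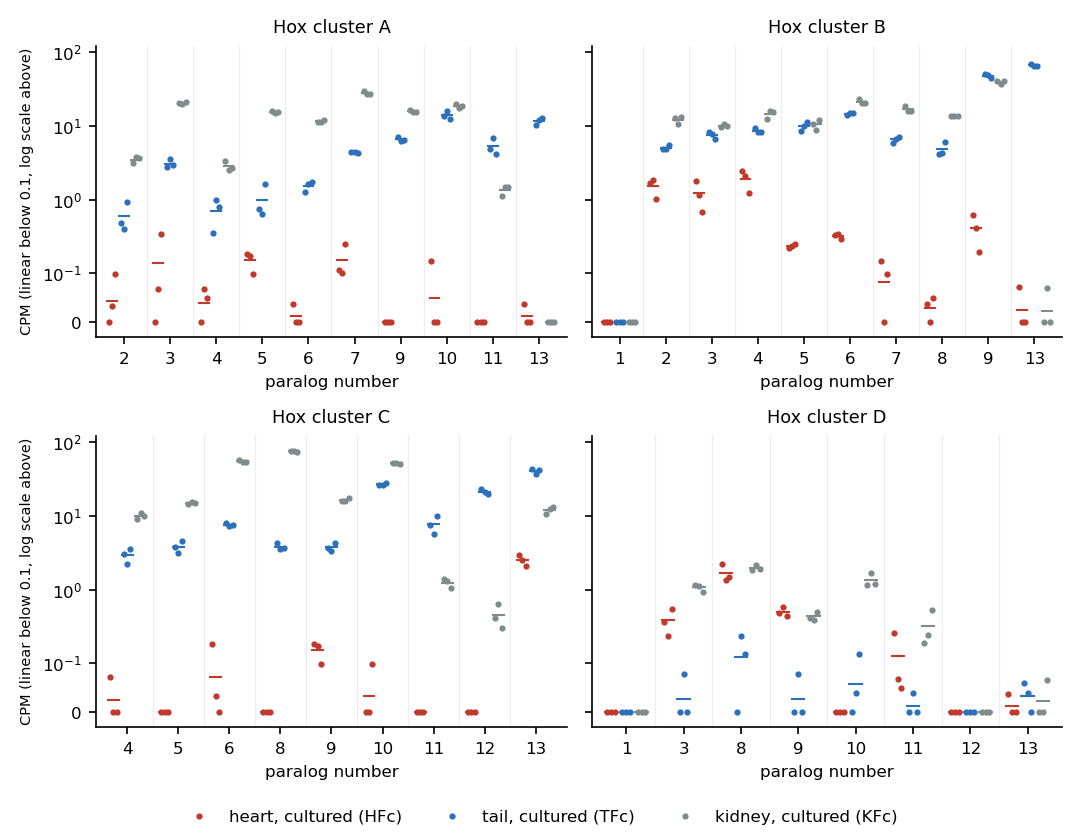
CPM of *Hox* genes by cluster (panels) and paralog number (horizontal axis) in single HFc, TFc and KFc libraries, on an axis that is linear below 0.1 CPM and logarithmic above. In clusters A, B and C the TFc points lie above the HFc points for every tested gene that is drawn, while *Hoxb13* and *Hoxa13* are high in TFc and at or near 0 in KFc and cluster D is low in all groups.

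Genes of tendon and joint matrix were among those with the largest differences toward TFc. *Thbs4*, a thrombospondin of tendon and muscle matrix, had 6426, 6639.8 and 6552 CPM in TFc and not a single count in the 3 HFc libraries, a difference of at least 54761-fold (adjusted p = 4.21e-09), and it was close to 0 in KFc with a mean of 0.0829 CPM. *Cilp*, the cartilage intermediate layer protein, had 1554, 1626 and 1646 CPM in TFc and 0.0364, 0 and 0.147 CPM in HFc, at least 13473-fold (adjusted p = 4.78e-06). *Prg4*, which encodes lubricin, the lubricant of joints and gliding tendons, had 2506, 2513 and 2690.1 CPM in TFc and 4.74, 4.74 and 4.27 CPM in HFc (log2 -9.13, SE 0.81, adjusted p = 2.74e-07). None of the HFc values of these genes came near a TFc value. *Abi3bp*, a matrix protein that binds collagen, had 0.401, 0.271 and 0.393 CPM in HFc and 765, 783 and 781 CPM in TFc (log2 -11.10, SE 0.97, adjusted p = 2.41e-07). *Comp*, the pentameric relative of *Thbs4* in cartilage and tendon, averaged 1.85 CPM in HFc and 338 CPM in TFc (log2 -7.52, SE 0.41), and *Fmod*, a small proteoglycan that organises collagen fibrils, 129 and 1385 CPM (log2 -3.43, adjusted p = 0.00103).

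Of 12 tendon and ligament genes tested, 8 were lower and 0 higher in HFc (0 at an unadjusted p under 0.05 and 0 by DESeq2), and the median log2 fold change was -3.27. *Mkx*, the Mohawk homeobox factor of tendon cells, had 3.72, 3.01 and 2.65 CPM in HFc and 62.8, 60.9 and 63 CPM in TFc (log2 -4.31, adjusted p = 9.78e-09). *Tnmd*, the tendon membrane protein tenomodulin, averaged 0.333 against 5.45 CPM (log2 -4.00, adjusted p = 0.00177), and *Myoc* 0.0666 against 17.3 CPM (at least 145-fold). The early growth response factors *Egr1* and *Egr2* were lower as well (log2 -1.46 and -2.26). *Scx*, the scleraxis factor that defines tendon precursors, had 4.41, 3.89 and 2.7 CPM in HFc and 9.91, 8.99 and 8.99 CPM in TFc and was not called (adjusted p = 0.146). *Col14a1* (269 and 196 CPM) and tenascin C (*Tnc*), which tendon shares with many connective tissues, were not called either.

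Genes of cartilage and bone went in both directions, with 3 of 17 higher and 7 lower in HFc. *Sox9* and *Sox5*, factors that drive cartilage genes and also act in heart valves, averaged 336 and 34.3 CPM in HFc against 74.9 and 1.41 CPM in TFc (log2 2.17, adjusted p = 2.33e-05, and 4.59, adjusted p = 6.29e-10). The cartilage collagen *Col2a1* was higher with them, at 117, 114 and 111 CPM in HFc and 12.8, 18.7 and 18.1 CPM in TFc. *Runx2* and *Sp7*, the factors that lead to bone cells, were lower in HFc, with 21.3 against 89.9 CPM (log2 -2.08, SE 0.11) and 0 against 1.84 CPM (at least 15.4-fold). Alkaline phosphatase (*Alpl*, 0.602 against 7.44 CPM), the hypertrophic cartilage collagen *Col10a1* (0.134 against 11.2 CPM) and osteopontin (*Spp1*, 14.8, 15.5 and 13.2 CPM in HFc against 1359.9, 1384 and 1389.5 CPM in TFc, log2 -6.57, adjusted p = 6.34e-08) were lower as well.

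**Figure D4:**
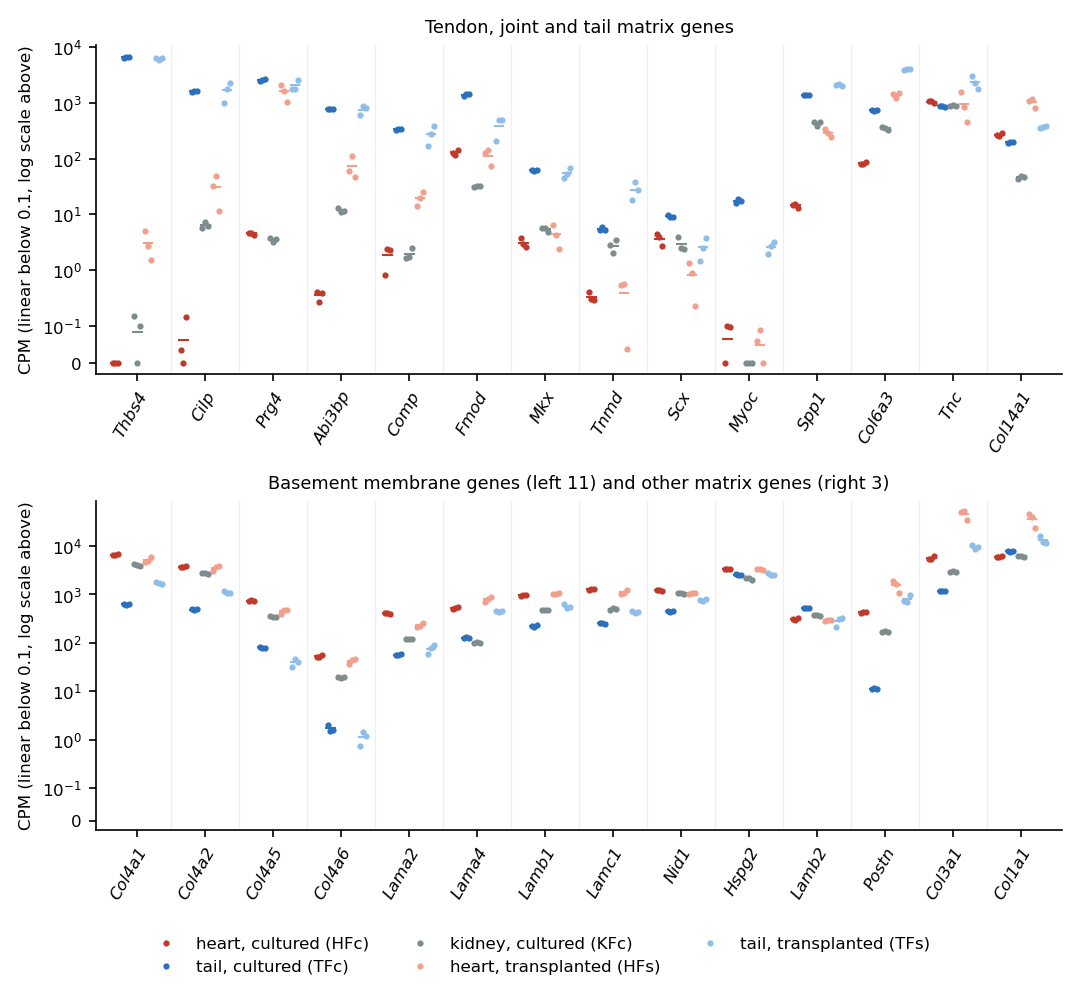
CPM of single libraries (points) and group means (bars) in HFc, TFc, KFc, HFs and TFs, on an axis that is linear below 0.1 CPM and logarithmic above. The upper panel holds tendon, joint and tail matrix genes with the tendon factors *Mkx* and *Scx*. The lower panel holds basement membrane genes and the other matrix genes *Postn*, *Col3a1* and *Col1a1*. *Thbs4* and *Cilp* are lower in both heart groups than in the tail groups, with *Cilp* at most 0.147 CPM in HFc and 11.6 to 47.9 CPM in HFs. *Prg4* reaches 1037 to 2109 CPM in HFs, and *Col4a1* and *Col4a2* are higher in HFc than in TFc.

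Among genes of the basement membrane the direction was toward HFc. Of 27 tested, 14 were higher and 0 lower (1 at an unadjusted p under 0.05 and 0 by DESeq2), the median log2 fold change was 1.91, and the summed level of the list was 19520 to 19890 CPM in HFc against 5480 to 5746 CPM in TFc. *Col4a1*, one of the chains of the type IV collagen network, had 6626, 6593 and 6769 CPM in HFc and 646, 599 and 647 CPM in TFc, a 10.6-fold difference (log2 3.40, SE 0.15, adjusted p = 1.32e-10). Its partner chain *Col4a2* had 3718, 3637 and 3874 CPM against 508, 471 and 490.1 CPM, 7.65-fold (log2 2.93, SE 0.17, adjusted p = 2.39e-09). Per kilobase of exon, the mean levels of *Col4a1* and *Col4a2* were 893 and 565 CPM per kb in HFc and 84.5 and 73.9 CPM per kb in TFc. The X-linked chains *Col4a5* and *Col4a6* averaged 741 and 52.9 CPM in HFc against 80.6 and 1.72 CPM in TFc (log2 3.20 and 4.92).

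*Col4a1* and *Col4a2* are read in opposite directions from a promoter region that they share. The promoter windows below, which run from 250 bases before to 50 bases after the start of each RefSeq gene (GRCm38.p6), are shown because both genes were higher in HFc. The starts lie 21 bases apart, each inside the other gene, and the 78 bases that the windows share, chr8:11312777-11312854, are in capitals.
Col4a1 promoter, chr8:11312777-11313076, minus strand: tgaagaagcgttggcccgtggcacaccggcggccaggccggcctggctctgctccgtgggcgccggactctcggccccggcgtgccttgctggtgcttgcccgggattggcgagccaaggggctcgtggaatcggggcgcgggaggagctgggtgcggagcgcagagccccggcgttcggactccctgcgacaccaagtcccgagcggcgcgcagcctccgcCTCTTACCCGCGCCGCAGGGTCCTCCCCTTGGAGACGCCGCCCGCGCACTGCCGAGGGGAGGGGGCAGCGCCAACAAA
Col4a2 promoter, chr8:11312555-11312854, plus strand: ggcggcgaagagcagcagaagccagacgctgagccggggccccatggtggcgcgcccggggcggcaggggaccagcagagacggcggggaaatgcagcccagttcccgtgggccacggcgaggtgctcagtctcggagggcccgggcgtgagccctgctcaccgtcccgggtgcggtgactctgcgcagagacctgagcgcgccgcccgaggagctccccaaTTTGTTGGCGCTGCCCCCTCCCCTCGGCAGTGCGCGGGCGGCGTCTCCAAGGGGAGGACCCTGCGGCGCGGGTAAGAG
Each window is written 5′ to 3′ on the strand of its gene, so the capitals of one are the reverse complement of the capitals of the other.

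Most laminin chains named here were higher in HFc as well. *Lama2*, the heavy chain of muscle and connective tissue laminin, had 406, 424 and 399 CPM in HFc and 57.2, 55.7 and 59.6 CPM in TFc (log2 2.83, adjusted p = 3.17e-08), and *Lama1* averaged 3.48 against 0.283 CPM. *Lama4*, *Lamb1* and *Lamc1*, chosen after their values were seen, were higher by 2.04, 2.11 and 2.33 on the log2 scale. *Lamb2*, chosen in the same way, stood at 313 CPM in HFc and 529 CPM in TFc (log2 -0.76, adjusted p = 0.00226), short of the fold limit and in the other direction. Nidogen 1 (*Nid1*), which links laminin to collagen IV, averaged 1224 against 449 CPM (log2 1.45, adjusted p = 3.21e-06). Perlecan (*Hspg2*), at 3362 and 2558 CPM, was not called (adjusted p = 0.0559). Endothelial cells also make type IV collagen, and their markers summed to 77 to 80.4 CPM in HFc and 53.4 to 61.5 CPM in TFc. Of 13 tested, 2 were higher in HFc, *Flt1*, a receptor of vascular endothelial growth factor (24.6 against 1.52 CPM, log2 4.02, adjusted p = 1.01e-08), and *Lyve1* (0.415 against 0.0423 CPM, adjusted p = 0.0261), which lost its call without HFc replicate 1, TFc replicate 1 or TFc replicate 2. *Egfl7* was lower at 0.185 against 1.74 CPM (adjusted p = 0.00322). *Cldn5* and *Emcn* were at 0 in all 6 libraries and *Cdh5* averaged 0.141 and 0.466 CPM. The part of these cells in the collagen and laminin values was not tested.

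The collagens that build fibrils gave no single direction, with 5 of 28 fibrillar and fibril-associated collagens higher, 7 lower and a median log2 fold change of -0.13. The 2 chains of type I collagen, *Col1a1* and *Col1a2*, averaged 6007 and 2970.3 CPM in HFc and 7701 and 3362 CPM in TFc and were not called (adjusted p = 0.461 and 0.715). *Col3a1*, which mixes with type I collagen in pliable tissues, had 5344, 5425 and 6109 CPM in HFc and 1187, 1158 and 1193 CPM in TFc (log2 2.25, adjusted p = 0.000987). The short-chain collagens parted, *Col8a1* with 1502 CPM in HFc against 175 CPM in TFc (log2 3.10, SE 0.23) and *Col8a2* with 1.58 against 65.8 CPM (log2 -5.37, adjusted p = 0.000401). Lower in HFc were also *Col6a3* (82.7 against 735 CPM, log2 -3.15), *Col5a3* (30 against 145 CPM, log2 -2.28) and *Col24a1* (0.192 against 24.5 CPM, log2 -6.95).

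Elastic fibre genes split as well, with 5 of 22 higher and 9 lower. Fibulin 2 (*Fbln2*), an adaptor between elastic fibres and basement membranes, had 5299.9, 5333 and 5329 CPM in HFc and 1517, 1410.3 and 1425 CPM in TFc (3.67-fold, adjusted p = 2.57e-05), and *Fbln1* 21.1 against 252 CPM in the other direction (log2 -3.58, adjusted p = 1.56e-05). The latent TGF-beta binding protein *Ltbp2* had 41.9, 45.3 and 37.3 CPM in HFc and 2964, 2898 and 2983 CPM in TFc (log2 -6.15, SE 0.35, adjusted p = 2.62e-09), while *Ltbp4* stood at 108 against 25.8 CPM (log2 2.06, adjusted p = 4.71e-07). *Emilin2* and *Mfap2* were lower (log2 -5.73 and -6.77), as was *Fbn2* (0.761 against 24 CPM), and *Mfap4* was higher (log2 4.27). Among the cross-linking enzymes, *Lox* had 2476, 2598 and 2399 CPM in HFc and 5029, 5243 and 5373 CPM in TFc (log2 -1.07, adjusted p = 0.0203). That call did not hold without HFc replicate 1 (log2 -1.06) or HFc replicate 3 (log2 -1.04). *Loxl2* and *Loxl1* were higher in HFc, at 901 against 224 CPM (adjusted p = 1.54e-05) and 373 against 175 CPM (adjusted p = 0.000112).

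Of 24 matricellular proteins, which signal to cells rather than bear load, 12 were lower in HFc (11.3% over all genes) and 5 higher, with a median log2 fold change of -1.41. *Thbs1*, at 7520.3, 7649 and 7267 CPM in HFc and 19189, 19401 and 19849 CPM in TFc, was lower in HFc (log2 -1.38, adjusted p = 0.000203). *Smoc2* averaged 53.3 against 788 CPM (log2 -3.89, SE 0.39) and its relative *Smoc1* 96.4 against 2.14 CPM in the other direction (log2 5.49, SE 0.36). Periostin (*Postn*), made by activated fibroblasts of the injured heart, had 421, 426 and 436 CPM in HFc and 11.2, 11.7 and 11.1 CPM in TFc (log2 5.23, adjusted p = 8.95e-07). Of the CCN family, *Ccn2*, or CTGF, had 2031, 2027 and 1972 CPM in HFc and 500.5, 497 and 524 CPM in TFc (log2 1.99, adjusted p = 9.89e-06), *Ccn4* was higher (log2 1.98) and *Ccn3* lower (log2 -4.96). Matrix Gla protein (*Mgp*), an inhibitor of calcification, had 83.4, 90.5 and 121 CPM in HFc and 645, 707 and 673 CPM in TFc (log2 -2.78, adjusted p = 0.00166). Fibronectin (*Fn1*) and *Sparc*, at 22219 and 4664 CPM in HFc and 17699 and 2694 CPM in TFc, were not called.

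*Ankrd1*, a nuclear ankyrin repeat protein of stretched muscle and a known target of YAP and TEAD factors together with *Ccn2*, had 1519.8, 1471 and 1494 CPM in HFc and 41.3, 37.4 and 38.8 CPM in TFc, a 38.1-fold difference (log2 5.25, SE 0.47, adjusted p = 3.25e-07). Kidney cultures lay between, at 172, 166 and 160.0 CPM. Its promoter window is shown with the letters GGAATG, the core to which TEAD factors bind, in capitals. They occur at 210 and 123 bases before the start. The window of *Thbs4*, the gene with the lowest fitted log2 fold change, is set beside it, and there the same letters on the other strand (CATTCC) occur at 197 and 192 bases before the start, where 2 copies overlap by 1 base.
Ankrd1 promoter, chr19:36119795-36120094, minus strand: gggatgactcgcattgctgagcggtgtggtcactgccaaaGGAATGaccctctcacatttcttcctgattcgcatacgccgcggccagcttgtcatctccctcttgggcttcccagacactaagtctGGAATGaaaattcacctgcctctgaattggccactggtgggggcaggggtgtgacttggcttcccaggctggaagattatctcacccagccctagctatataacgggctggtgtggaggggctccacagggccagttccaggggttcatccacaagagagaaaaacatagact
Thbs4 promoter, chr13:92794769-92795068, minus strand: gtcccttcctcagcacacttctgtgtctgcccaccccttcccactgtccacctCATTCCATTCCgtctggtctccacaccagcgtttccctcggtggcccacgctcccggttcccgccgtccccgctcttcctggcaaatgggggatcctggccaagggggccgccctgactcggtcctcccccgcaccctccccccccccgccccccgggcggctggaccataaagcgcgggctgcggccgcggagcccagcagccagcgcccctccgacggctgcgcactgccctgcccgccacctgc
On either strand these letters stood in 14.7% of 32817 RefSeq promoter windows of this length, in 12.7% of those of 15047 genes tested, and in 15.6% and 13.6% of the windows of genes higher and lower in HFc, so that a match describes the window and no more.

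Of 32 proteoglycans and hyaluronan genes, 16 were lower and 2 higher in HFc, with a median log2 fold change of -1.51. Beside *Prg4* and *Fmod*, lumican (*Lum*) averaged 0.481 against 11.9 CPM (log2 -4.69, adjusted p = 0.00157), the hyaluronan link protein *Hapln1* 0.17 against 6.63 CPM (log2 -5.14) and the cell surface glypican *Gpc1* 14.4 against 158 CPM (log2 -3.46, SE 0.15, adjusted p = 1.22e-10). *Gpc4* was higher, at 509 against 226 CPM (log2 1.17, adjusted p = 4.43e-07),. The other higher gene, *Omd* (0.955 against 0.226 CPM), lost its call without HFc replicate 2 or 3 and without any TFc replicate, which leaves 1. Biglycan (*Bgn*, 2367 and 1770.4 CPM) and *Prelp* (1761 and 1448 CPM), both abundant, were not called.

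Among matrix proteases and their inhibitors, 11 of 40 were higher and 10 lower in HFc (27.5% and 25%, against 8.24% and 11.3% over all genes). The inhibitor *Timp3*, which is held in the matrix, had 3227, 3365 and 3442 CPM in HFc and 475, 480.1 and 466 CPM in TFc (log2 2.82, SE 0.16, adjusted p = 2.62e-09), while *Timp2* at 1116 and 1196 CPM was not called. *Serpinf1*, an inhibitor of vessel growth, averaged 75.9 against 1136 CPM in the other direction (log2 -3.90, adjusted p = 3.8e-07). The aggrecan- and versican-cleaving proteases *Adamts1*, *Adamts5* and *Adamts9* were higher by 2.12, 1.64 and 2.70 on the log2 scale, and the membrane protease *Mmp16* by 2.46, whereas *Mmp23* and *Adamts6* were lower (log2 -2.03 and -2.77). The collagen chaperone *Serpinh1*, at 2146, 2205 and 2180.4 CPM in HFc and 1008, 1014 and 1023 CPM in TFc (log2 1.10, adjusted p = 0.00114), lost its call when libraries were scaled by their totals alone (log2 0.94), as did *Loxl1* (log2 0.93).

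The receptors for these proteins changed in part. Of 24 integrin subunits, 6 were higher (25%, against 8.24% over all genes) and 3 lower (12.5%, against 11.3%). *Itga4*, which binds fibronectin and VCAM1, is given above. The vitronectin receptor chains *Itgav* and *Itgb3* averaged 821 and 13.9 CPM in HFc against 346 and 5.99 CPM in TFc (log2 1.25 and 1.21), *Itga9* 55.2 against 22.3 CPM (log2 1.31) and *Itgb8* 26.2 against 11.7 CPM (log2 1.17). The common subunit *Itgb1* averaged 1736 and 987 CPM (log2 0.81, adjusted p = 1.01e-05), under the fold limit. The leukocyte subunits *Itgal* and *Itgb7* lost their calls as lower genes without HFc replicate 2 or 3 or TFc replicate 2, which leaves *Itga2b*, and *Itgax* lost its call as a higher gene without HFc replicate 1 or TFc replicate 1 or 3. Of 10 cadherins, *Cdh2*, or N-cadherin, was higher at 397 against 133 CPM (log2 1.58, adjusted p = 1.11e-06), and 4 were lower, namely *Cdh11* (106 against 283 CPM), *Cdh13* (7.69 against 64.3 CPM), *Cdh6* (0.227 against 10.7 CPM) and *Cdh18* (0.126 against 9.8 CPM).

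**Figure D5:**
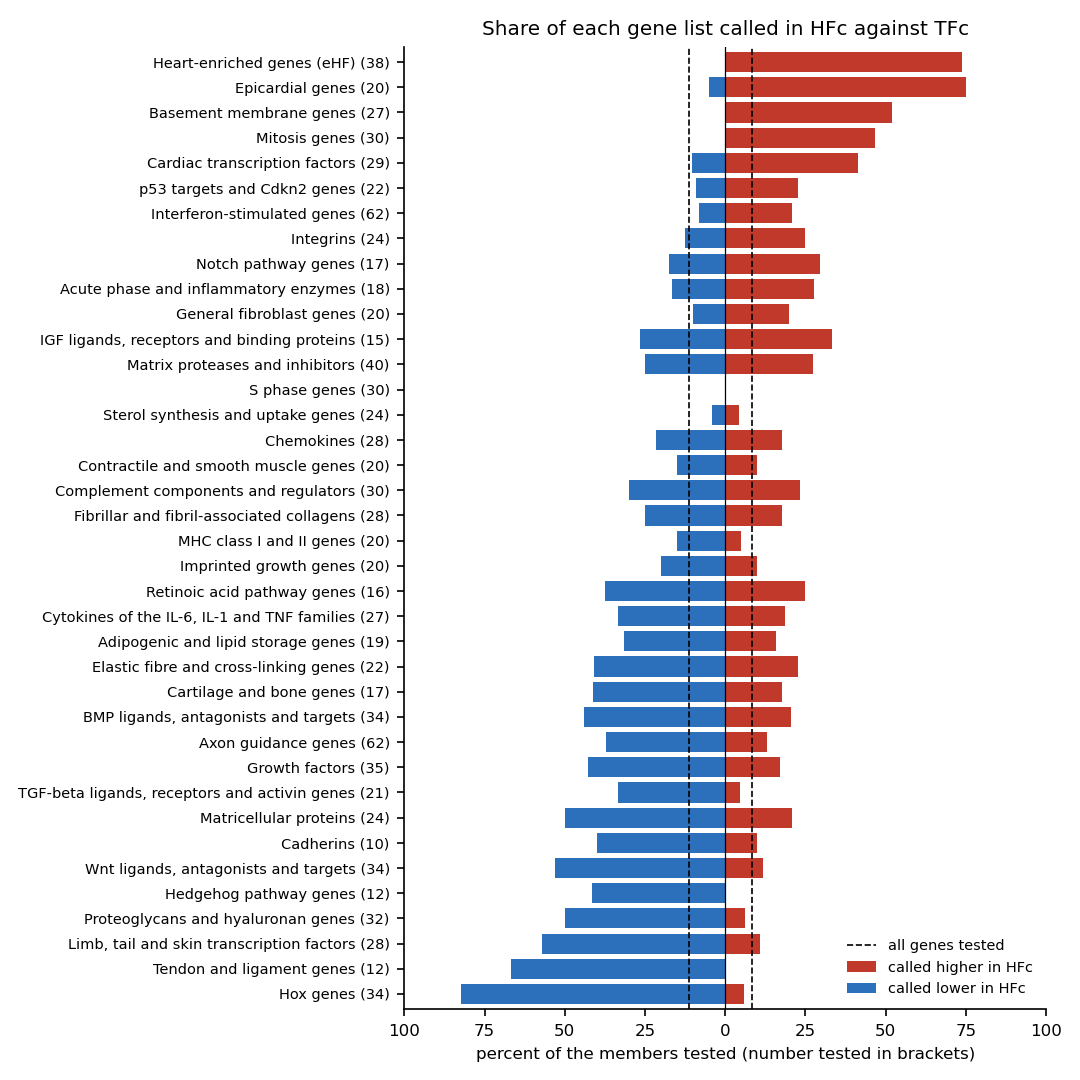
Percent of the tested members of each gene list that were called higher (to the right) or lower (to the left) in HFc, with dashed lines at the percentages over all genes tested (8.24% and 11.3%). Epicardial, heart-enriched and basement membrane genes lie far to the right, and *Hox*, tendon, limb and Wnt genes far to the left. The study had chosen the heart-enriched genes for their rise over tail fibroblasts.

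Of 34 genes of the Wnt pathway, 18 were lower and 4 higher in HFc, with a median log2 fold change of -2.42 (-2.07 with 6 members at their bounds). Among the ligands, *Wnt16* averaged 0.0338 against 12.1 CPM (adjusted p = 2.18e-08) and *Wnt2* 0.157 against 11 CPM (log2 -6.01), and *Wnt9a* was higher at 16.8 against 2.27 CPM (log2 2.88). *Rspo3*, a secreted amplifier of Wnt signals, had 0.0729, 0 and 0.197 CPM in HFc and 42.7, 47.7 and 48 CPM in TFc (log2 -9.11, SE 0.68, adjusted p = 4.01e-08), and its receptor *Lgr5* 0.0113 against 15.1 CPM (at least 126-fold). The antagonists did not move as a block. *Dkk2* had 4.74, 4.6 and 3.54 CPM in HFc and 982, 1014 and 942 CPM in TFc (log2 -7.82, SE 0.49, adjusted p = 6.33e-09) and *Dkk3* 24.2 against 424 CPM (log2 -4.13), whereas *Frzb* and *Sfrp4* (2.5 against 0.202 CPM) were higher and *Sfrp1* (298 and 206 CPM) was not called. Of genes that Wnt signals switch on, *Notum* was lower at 0.0328 against 2.01 CPM and *Apcdd1* higher at 17.4 against 3.51 CPM, and *Axin2* and *Tcf7*, chosen after their values were seen, were lower (log2 -3.58 and -3.92).

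BMP genes went in both directions. Of 34 tested, 7 were higher in HFc and 15 lower, and their median log2 fold change changed sign with the bounds (-0.05, or 0.08 with 2 members at their bounds). The ligands *Gdf6*, *Bmp4* and *Bmp6* were higher. *Gdf6*, a factor of joints and bone, had 446, 437 and 437 CPM in HFc and 3.03, 4.04 and 4.12 CPM in TFc (log2 6.89, SE 0.32, adjusted p = 2.69e-10), *Bmp4* averaged 95 against 8.27 CPM (log2 3.52) and *Bmp6* 67.2 against 2.53 CPM (log2 4.73). The secreted antagonist *Grem1* was close to absent in HFc, at 0.474, 0.711 and 0.147 CPM against 187, 183 and 176 CPM in TFc (log2 -8.58, adjusted p = 1.8e-08). The antagonist *Chrdl1* averaged 0.0121 against 11.8 CPM (at least 98.7-fold lower). Receptors went both ways, *Acvrl1* with 236 against 16.6 CPM (log2 3.82) and *Bmpr1b* with 2.71 against 42.4 CPM (log2 -3.97), while *Bmpr2* (165 and 143 CPM) and the inhibitory *Smad7* (155 and 119 CPM) were not called.

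In the TGF-beta family, which drives matrix synthesis, *Tgfb2* was the 1 higher gene of 21, with 221, 214 and 230.2 CPM in HFc and 15.7, 18.9 and 17.9 CPM in TFc (log2 3.66, SE 0.15, adjusted p = 7.32e-11). The 7 lower genes included the other ligands, *Tgfb1* (13.5 against 37.1 CPM, log2 -1.45) and *Tgfb3* (168 against 394 CPM, log2 -1.22), the co-receptor *Tgfbr3* (18.1 against 286 CPM, log2 -3.98) and the activin subunit *Inhbb* (59.7 against 161 CPM, log2 -1.43). *Inhba*, the other activin subunit, at 282 and 404 CPM, was not called. Hedgehog genes gave 5 lower and 0 higher (0 at an unadjusted p under 0.05 and 0 by DESeq2) of 12, among them the receptor *Ptch1* (7.7 against 28.4 CPM, log2 -1.88), the effectors *Gli1* (0.0787 against 0.659 CPM) and *Gli2* (0.901 against 11.6 CPM), the co-receptor *Gas1* (5.53 against 82.9 CPM, log2 -3.91) and *Hhip* (0 against 1.9 CPM). The ligands *Shh* and *Ihh* were at or under 3 counts in all 6 libraries.

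Of 17 Notch pathway genes tested, 5 were higher and 3 lower in HFc. The ligand *Jag1* had 423, 422 and 390.2 CPM in HFc and 16.1, 16.2 and 17.5 CPM in TFc (log2 4.63, SE 0.38, adjusted p = 1.3e-07), the receptors *Notch3* and *Notch4* averaged 134 and 19 CPM against 36.1 and 1.02 CPM, and the targets *Hes1* and *Heyl* were higher with them, *Hes1* at 44.4 against 17.4 CPM (log2 1.35). *Notch1* and *Notch2*, at 59.1 and 238 CPM in HFc and 71.4 and 198 CPM in TFc, were not called. Lower were *Dlk1*, an imprinted gene related to Notch ligands, at 0.328, 1.02 and 0.393 CPM in HFc and 71.6, 69.3 and 74.4 CPM in TFc (log2 -6.90, adjusted p = 1.46e-07), its relative *Dlk2* (0.193 against 3.42 CPM) and *Lfng* (1.78 against 5.47 CPM).

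The retinoic acid pathway went in both directions, with 4 of 16 higher and 6 lower. Besides *Aldh1a1* and *Aldh1a2*, the receptor *Rarb* was higher (1.36 CPM in HFc against 0.233 CPM in TFc). The retinoic acid binding protein *Crabp1* had 0.874, 1.9 and 1.23 CPM in HFc and 64.1, 71.3 and 68.1 CPM in TFc (log2 -5.65, adjusted p = 1.27e-07), and the degrading enzyme *Cyp26b1*, the reductase *Dhrs3*, *Rdh10* and the receptor *Rara* were lower (log2 -1.32, -2.38, -1.67 and -1.14). *Aldh1a3*, at 39.8 and 38.2 CPM, was not called.

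Of 35 growth factors, 15 were lower and 6 higher in HFc. Hepatocyte growth factor (*Hgf*) averaged 0.541 against 22.3 CPM (log2 -5.37, adjusted p = 1.2e-08), *Pdgfc* 2.51 against 63.4 CPM (log2 -4.66, SE 0.29), *Angpt1*, which steadies vessels, 1.47 against 48.3 CPM (log2 -5.06) and the limb bud factor *Fgf10* 0.134 against 3.69 CPM (log2 -4.77). *Vegfa*, the main signal for vessel growth, had 288, 282 and 276 CPM in HFc and 77.8, 71.4 and 73.9 CPM in TFc (log2 1.92, adjusted p = 5.77e-05), and *Vegfc*, which guides lymphatic vessels, 11.1 against 2.96 CPM. The neurotrophin *Bdnf* (160.2 against 44.8 CPM, log2 1.84) and the EGF receptor ligand *Ereg* (130.0 against 35.9 CPM, log2 1.86) were higher as well. *Csf1*, the growth factor of macrophages, was abundant and close in both cultures, at 1902 and 1935 CPM (log2 -0.02, SE 0.15). Of 15 IGF genes, 5 were higher and 4 lower (3 higher without HFc replicate 2 or without TFc replicate 1). *Igfbp4* had 139, 132 and 156 CPM in HFc and 4534, 4449 and 4355 CPM in TFc (31.2-fold lower in HFc, log2 -4.97, adjusted p = 3.74e-05) and *Igfbp6* 2.68 against 161 CPM (log2 -5.91), while *Igfbp7* was higher at 596 against 153 CPM (log2 1.96, SE 0.07, adjusted p = 3.89e-11), and so were the receptors *Igf1r* (467 against 162 CPM) and *Igf2r* (464 against 206 CPM). *Gas6*, a ligand of the TAM receptors, had 132, 133 and 157 CPM in HFc and 2066, 2116 and 2104 CPM in TFc (log2 -3.90, adjusted p = 3.32e-05).

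Axon guidance genes, which also position cells outside the nervous system, gave 23 lower and 8 higher of 62. *Epha3*, an ephrin receptor, had 1.24, 0.846 and 1.43 CPM in HFc and 108, 111 and 109 CPM in TFc (log2 -6.57, SE 0.67), *Sema3a* averaged 13.5 against 142 CPM (log2 -3.39, SE 0.21), *Sema3b* 0.483 against 37.8 CPM (log2 -6.32) and netrin 1 (*Ntn1*) 4.88 against 68.6 CPM (log2 -3.81). *Sema3d*, known from the epicardium, was higher with 317, 335 and 313 CPM in HFc and 55.3, 56.2 and 55.2 CPM in TFc (log2 2.53, adjusted p = 2.89e-06), as were *Sema6d*, *Plxna4* and *Unc5b* by 2.15, 2.02 and 1.36 on the log2 scale. *Slit2* and *Plxna1*, both abundant, were not called.

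Immune signalling genes gave no common direction. Of 27 cytokines and receptors of the IL-6, IL-1 and TNF families, 5 were higher and 9 lower. *Il6* had 19.6, 21.3 and 22.7 CPM in HFc and 0, 0.392 and 0.482 CPM in TFc (log2 6.29, SE 0.67, adjusted p = 2e-06), its relative *Lif* 50.1, 50.2 and 50 CPM and 3.71, 3.85 and 4.12 CPM (log2 3.69), and the decoy receptor *Tnfrsf11b*, or osteoprotegerin, 139, 139 and 135 CPM and 3.92, 3.1 and 2.81 CPM (log2 5.38, SE 0.15, adjusted p = 3.17e-12). Its ligand *Tnfsf11*, or RANKL, was lower at 0.132 against 1.06 CPM. The IL-33 receptor *Il1rl1* had 0.474, 0.271 and 0.688 CPM in HFc and 197, 195 and 194 CPM in TFc (log2 -8.73, SE 0.34, adjusted p = 4.73e-11). Of 28 chemokines, 5 were higher and 6 lower (17.9% and 21.4%, against 8.24% and 11.3% over all genes). *Cxcl14* had 0.984, 1.29 and 1.33 CPM in HFc and 206, 218 and 199 CPM in TFc (log2 -7.44, SE 0.28, adjusted p = 3.65e-11), and *Cxcl12* and *Ccl2*, at 97.1 and 47.3 CPM in HFc and 180.0 and 56.5 CPM in TFc, were not called.

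Complement genes went in both directions, with 7 of 30 higher and 9 lower. *C3* averaged 151 against 19 CPM (log2 2.99, adjusted p = 0.000139) and the collectin *Colec11* 8.2 CPM against 0 (at least 72.8-fold). *C1ra* and *C1s1*, the proteases of the first step, were lower at 13 against 96.5 CPM and 3.2 against 50.2 CPM. Of 18 acute phase genes and inflammatory enzymes, 5 were higher and 3 lower. Prostacyclin synthase (*Ptgis*) had 163, 164 and 155 CPM in HFc and 18.6, 18.5 and 14.6 CPM in TFc (log2 3.22, adjusted p = 1.41e-08), and *Ptgs2*, or COX-2, 17.3, 18.1 and 15.3 CPM and 212, 212 and 225 CPM (log2 -3.68, adjusted p = 1.62e-05), with *Ptges*, which makes prostaglandin E2, lower too (log2 -4.85). *Hsd11b1*, which activates glucocorticoids, averaged 131 against 2.31 CPM (log2 5.81), and ceruloplasmin (*Cp*) 85.6 against 1.76 CPM (log2 5.61, adjusted p = 0.000173).

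Interferon-stimulated genes showed 13 higher and 5 lower of 62, with a median log2 fold change of 0.40. *Slfn5* and *Sp100* averaged 44.9 and 36.6 CPM in HFc against 4.9 and 2.67 CPM in TFc (log2 3.20, adjusted p = 0.0001, and 3.77, adjusted p = 7.09e-06). *Ifit3* stood at 38.1, 32.1 and 33.1 CPM in HFc and 5.99, 6.47 and 5.26 CPM in TFc (log2 2.54, adjusted p = 0.00545), although it shares near-identical sequence with *Ifit3b* and their counts are uncertain against each other. *Psmb8*, *Gbp2* and *Irf1* were lower (log2 -1.74, -1.35 and -1.11). At an adjusted p under 0.01, 7 genes of the list were higher, and without HFc replicate 3 there were 3 lower. Of 20 MHC genes, 1 was higher (5%, against 8.24% over all genes) and 3 lower (15%, against 11.3%). *B2m* was higher at 229 against 102 CPM (log2 1.17, adjusted p = 6.51e-05). Of the 3 lower genes, all at low levels, *H2-DMb1* (0.812 against 7.12 CPM) kept its call in all alternatives. *H2-Eb1* and *H2-Q6* lost theirs without HFc replicate 1 or 3, among others, so that 1 remained without HFc replicate 3.

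Genes of mitosis were in part higher in HFc. All 30 of 30 mitosis genes had a positive log2 fold change, 14 were called higher and 0 lower (0 at an unadjusted p under 0.05 and 0 by DESeq2), and the median was 0.96. *Ube2c*, which marks proteins for destruction in anaphase, had 33.3, 35 and 28.3 CPM in HFc and 11.1, 9.61 and 10.3 CPM in TFc (log2 1.63, adjusted p = 0.00028), the centromere histone *Cenpa* 13.2 against 4.23 CPM (log2 1.65), *Anln* of the cleavage furrow 118 against 43.3 CPM (log2 1.45) and *Cdc20* 24.8 against 10.2 CPM (log2 1.29). *Mki67* and *Top2a*, at 249.9 and 147 CPM against 149 and 98.6 CPM, were not called (adjusted p = 0.0589 and 0.122). With libraries scaled by their totals alone, which shifts the median log2 fold change of all genes to -0.16, the number of mitosis genes called fell to 8. Of 30 S phase genes, 0 were called in either direction by edgeR's quasi-likelihood test and 0 by DESeq2, with 10 positive and 1 negative at an unadjusted p under 0.05, and their median was 0.30. *Rrm1* (152 against 98.5 CPM) and *Rrm2* (52.5 against 96.9 CPM), the subunits of ribonucleotide reductase, had log2 fold changes of 0.63 and -0.88.

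Of 20 general fibroblast genes, 4 were higher (20%, against 8.24% over all genes), 2 lower (10%, against 11.3%) and 14 not called, and 12 of those not called did not overlap between the groups. Lack of overlap was common: over all 16577 genes tested, 10292 did not overlap, of which only 3193 were called. Besides *Col3a1* and *Postn*, *Eng* and *Dpt* were the higher genes, and *Lum* and *Ly6a* the lower ones. *Vim*, *Pdgfra*, *Pdgfrb* and *P4hb* averaged 5064, 178, 390.4 and 1220.1 CPM in HFc and 5273, 127, 294 and 1071 CPM in TFc. *Thy1*, which encodes CD90, had 128, 130.4 and 123 CPM in HFc and 242, 232 and 247 CPM in TFc (log2 -0.92, adjusted p = 0.0107), short of the fold limit although the values did not overlap. The endoglin gene *Eng*, a TGF-beta co-receptor, was higher with 511, 501 and 498 CPM in HFc and 37.3, 30.4 and 35.7 CPM in TFc (log2 3.87, SE 0.26, adjusted p = 1.53e-08), and *Dpt*, dermatopontin, with 19.8 against 2.43 CPM. *Ly6a*, or Sca-1, was lower with 7.4, 6.33 and 7.81 CPM in HFc and 108, 109 and 116 CPM in TFc (log2 -3.95, adjusted p = 3.19e-06). The myofibroblast gene *Acta2* averaged 2073 CPM in HFc and 1065 CPM in TFc (log2 0.96, adjusted p = 0.0275) and was just under the fold limit. Of 20 contractile genes, 10% were higher and 15% lower, against 8.24% and 11.3% over all genes. *Tagln* and *Synpo2* were higher, at 851 against 358 CPM and 31 against 11.6 CPM, and *Cnn1*, *Mylk* and *Actg2* lower, at 18.6 against 99.1, 11.5 against 76.3 and 12.4 against 62.7 CPM.

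Other genes with the largest falls in HFc have varied roles. Gliomedin (*Gldn*), which gathers sodium channels at nodes of peripheral nerve, had 55, 55 and 51.6 CPM in TFc and 0 in HFc (at least 451-fold, adjusted p = 2.77e-07). Proenkephalin (*Penk*), the precursor of opioid peptides, had 38, 40 and 36.6 CPM against 0 (at least 319.8-fold, adjusted p = 6.15e-07). Carbonic anhydrase 3 (*Car3*), an enzyme of muscle and fat, had 299, 314 and 333 CPM in TFc and 0, 0.203 and 0 CPM in HFc (log2 -11.91, SE 1.07, adjusted p = 1.03e-06). *Egfl6*, a secreted protein of skin and bone, had 10.6, 12.8 and 10.5 CPM and the glycosyltransferase *Galnt9* 9.67, 10.6 and 10.1 CPM, both against 0 (at least 94.6-fold and 84.6-fold).

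RNA of other cell types was read beside these results. Cardiomyocyte markers summed to 106 to 122 CPM in HFc and 3.65 to 4.9 CPM in TFc, and almost all of it in HFc was troponin T (*Tnnt2*) at 92.2, 99.2 and 107 CPM and *Myl4* at 11.9, 11.2 and 13.2 CPM. Of 16 markers, 8 were at or under 3 counts in all 6 libraries, and *Myh6*, *Myh7*, *Pln* and *Ckmt2*, which define heart muscle, were at 0 throughout. *Nppb* was higher too (0.771 against 0.0131 CPM), while *Ryr2* (0.0243 against 1.19 CPM) and *Tnni3* (0.457 against 1.04 CPM) were lower. *Tnni3* lost its call without HFc replicate 1 or 2 or TFc replicate 1 or 3. *Myh1* and *Myh2*, myosins of adult skeletal muscle, were higher in HFc at 21.7, 19.7 and 22.2 and 5.14, 6.16 and 7.47 CPM against 0, 0.157 and 0.219 and 0.148, 0.314 and 0 CPM in TFc, while *Myod1*, *Myog*, *Myf5* and *Pax7* were at 0 in all 6 libraries and *Acta1* was lower in HFc (2.05 against 6.65 CPM, adjusted p = 0.0107), a call that did not hold without HFc replicate 1. Leukocyte and macrophage markers summed to 122 to 139 CPM in HFc and 199.8 to 229 CPM in TFc, with *Lyz2* at 50.3 and 126 CPM, *Ptprc* (CD45) at 5.41 and 4.79 CPM and *Cd3e* and *S100a8* at 0. The macrophage genes *Cx3cr1* (7.1 against 1.47 CPM, adjusted p = 2.03e-05) and *Mrc1* (10.9 against 3.61 CPM, adjusted p = 0.0407) were higher in HFc and *Cd14* (1.17 against 3.55 CPM, adjusted p = 0.0163) lower, and *Mrc1* lost its call without any one of the 6 libraries and *Cd14* without HFc replicate 2 or TFc replicate 2. *Pecam1* (CD31) averaged 27.5 and 22.9 CPM and was not called. The part of these cells in the cytokine, chemokine and complement values was not tested.

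Keratinocyte markers summed to 37.9 to 43.2 CPM in HFc and 94 to 98.3 CPM in TFc, where most of it was desmoplakin (*Dsp*, 8.44 and 85.2 CPM), with 10 of 22 at or under 3 counts in all 6 libraries. *Sprr1a*, a small protein of the cornified envelope that stressed cells of other types also make, went the other way with 5.79, 6.7 and 7.32 CPM in HFc and 0, 0 and 0 CPM in TFc (adjusted p = 0.00107). So did *Pkp1*, *Ivl* and *Grhl3*, at 9.79, 2.98 and 0.384 CPM in HFc and 1.19, 0.147 and 0.0245 CPM in TFc, and *Trp63* was lower in HFc (0.0798 against 0.718 CPM). *Grhl3* lost its call without TFc replicate 1 or TFc replicate 2. Melanocyte markers summed to 17.7 to 21.8 CPM in HFc and 61 to 67.3 CPM in TFc, where *Mitf*, at 6.82 and 51.1 CPM, was the called member. Schwann cell markers summed to 162 to 169 against 96.9 to 103 CPM, with *Sox10* at 0 throughout. *Cdh19* (4.7 against 0.0585 CPM, adjusted p = 5.59e-05) and *Pmp22* (136 against 66.2 CPM, adjusted p = 0.00817) were the members of that list higher in HFc and *Mbp* (3.28 against 6.9 CPM, adjusted p = 0.033) the lower one. *Pmp22* lost its call with libraries scaled by their totals alone (log2 0.88) or thinned to the smallest total (log2 0.98), and *Mbp* lost its call without HFc replicate 2 or 3 or TFc replicate 1 or 2. Pericyte and smooth muscle markers summed to 621 to 678 against 523 to 529 CPM, where *Mcam* and *Notch3* (log2 4.47 and 1.89) and *Rgs5* (5.43 against 2.36 CPM) were higher in HFc and *Cspg4*, *Cnn1* and *Abcc9* lower (log2 -3.60, -2.41 and -1.95). *Abcc9* lost its call without HFc replicate 2 or 3 or TFc replicate 2 or 3. Kidney tubule markers summed to 22.1 to 24.7 against 19.1 to 21.7 CPM. The part of these cells in the results above was not tested.

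The transplanted cells gave another set of libraries in which heart and tail could be compared again. Between HFs and TFs, 887 genes (5.35%) were higher and 835 (5.04%) lower. Of these, 510 were higher in both states, which is 37.3% of the genes higher in culture and 57.5% of those higher after transplantation, and 576 were lower in both, which is 30.8% and 69%. The direction was opposite for 14 and 36 genes. The difference in culture and the difference after transplantation were themselves unlike for 3776 genes (22.8%, adjusted p under 0.05), among them 590 of the genes higher and 912 of those lower in HFc. *Tbx20* (log2 11.61 after transplantation) and *Thbs4* (4.99, 2.78 and 1.52 CPM in HFs and 6329.8, 5723 and 6432 CPM in TFs) remained far apart. *Prg4* did not, since it had 2109, 1654 and 1037 CPM in HFs and 1765, 1788 and 2572 CPM in TFs (log2 -0.35), and *Thbs1* and *Mgp* had log2 differences of 0.33 and -0.03 there. *Col4a1* and *Col4a2* remained higher in heart cells by 1.58 and 1.68 on the log2 scale, with TFs libraries at 1656 to 1836 and 1068 to 1175 CPM.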

How the data were processed

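Total RNA of 18 libraries (6 groups of 3) was sequenced as single reads of 75 bases after a stranded random-primed kit for small inputs. Per the study's methods, the authors aligned the reads with Bowtie2 within RSEM, with the setting for stranded reads (the submitters' processing notes name Bowtie), and deposited its expected counts per gene as whole numbers, which were not normalised. The study's methods name GRCm38 as the genome whereas the submitters' processing notes name mm9, and the gene annotation release is not given in the sources used here. Of 38924 identifiers, 37607 matched GENCODE mouse release 21 and took its symbols; the other 1317 held 0.277% of the counts.

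All 18 libraries entered 1 fit in edgeR 4.0.16 (R 4.3.3), with a mean per group, filterByExpr, TMM scaling and the quasi-likelihood test (common biological coefficient of variation 0.24, 12 residual degrees of freedom). A call needed a Benjamini-Hochberg adjusted p under 0.05 and a log2 fold change beyond 1 in size; SE is the log2 fold change divided by the square root of F. On simulated counts for HFc against TFc over 15965 genes, a gene was found at an adjusted p under 0.05 in the right direction, without the fold limit. By that rule 48 of 100 genes changed by 1 log2 unit and 100 of 100 changed by 2 were found, with 8 false calls. The full call rule was not simulated. Bounds used 3 counts per library, and CPM per kb used the exon length of the annotation. The genes to be named were the 10 largest changes in each direction (mean of at least 10 CPM), the 8 largest differences in CPM per kb in each direction, every member of the *Hox* list and of lists of up to 20 genes, up to 6 called members per direction and the 4 of highest CPM of longer lists, and genes the study's text turns on. The comparison, the lists and these rules were chosen with earlier results of these data known. Some genes that these rules name are not reported here. No sample was dropped. Alternatives were DESeq2 1.42.0, other scalings, filters, samples and thresholds, thinning to the smallest total, a block for the replicate number and leaving out each library. Promoter windows are those of RefSeq genes of GRCm38.p6, matched by symbol.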

Additional observations from a re-analysis of the deposited data

Results flagged for a closer look

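For 12 of the genes named for the size of their change, the difference between heart and tail cells in culture was unlike the difference after transplantation, by the interaction term of edgeR's quasi-likelihood fit across all genes. Among the 10 genes with the largest changes in each direction these were *Thbs4* (adjusted p = 0.00112), *Cilp* (adjusted p = 0.00451), *Car3* (adjusted p = 0.0407) and *Abi3bp* (adjusted p = 0.000145). *Thbs4* was at 0 in HFc, so its difference in culture is a bound, and it had a log2 difference of -11.00 between HFs and TFs. *Cilp*, at or under 3 counts in each HFc library, had -5.79 after transplantation, with 31.8, 47.9 and 11.6 CPM in HFs and 1007, 1783 and 2247 CPM in TFs. *Car3* went from -11.91 in culture to -6.70, with 11.3, 95.4 and 114 CPM in TFs, and *Abi3bp* from -11.10 to -3.36, with 61.1, 113 and 47.7 CPM in HFs and 598, 876 and 799 CPM in TFs. The interaction term could not be estimated for genes at 0 in every TFc and TFs library, such as *Upk3b*, *Lrrn4* and *Upk1b* (SE 13848, 14083 and 16232). These averaged 110, 39.7 and 25.4 CPM in HFc and 1.31, 0.901 and 0.269 CPM in HFs. For such genes the lack of a call does not mean that the states were alike.

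Among the genes with the largest differences per length, whose interaction terms were read after their values were seen, the difference was smaller after transplantation for *Col4a1* (log2 3.40 in culture and 1.58 after, adjusted p = 1.34e-05), *Col4a2* (2.93 and 1.68, adjusted p = 0.000905), *Igfbp4* (-4.97 and -2.38, adjusted p = 0.0402), *Spp1* (-6.57 and -2.83, adjusted p = 0.000371), *Gas6* (-3.90 and -0.76, adjusted p = 0.00503), *Prg4* (-9.13 and -0.35, adjusted p = 1.26e-05) and *Mgp* (-2.78 and -0.03, adjusted p = 0.0242). *Prg4* showed the widest change of these, from 4.27 to 4.74 CPM in HFc to 1037 to 2109 CPM in HFs, with 2506 to 2690.1 and 1765 to 2572 CPM in the tail groups. For *Thbs1* (-1.38 and 0.33, adjusted p = 0.00174) the sign of the estimate turned, and the gene was not called after transplantation.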

How the results depend on the processing

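No gene called in either direction was called in the other direction under any alternative. Without the fold limit, at an adjusted p under 0.05 alone, 6943 genes differed, 3464 higher and 3479 lower in HFc. The other settings gave between 2662 (adjusted p under 0.01) and 3546 calls (without KFs replicate 3), and those that left out 1 HFc or TFc library gave 3006 to 3083 calls, of which 1251 to 1313 were higher and 1744 to 1832 lower. DESeq2 shared 3167 of its 3454 calls with edgeR. Scaling by library totals alone moved the median log2 fold change of all genes to -0.16 and the share of calls that were higher in HFc from 42.2% to 33.4%, with 1112 higher and 2219 lower. Calls between HFs and TFs ranged from 1397 to 1589 when 1 library was left out (1722 with all), and genes whose differences in culture and after transplantation were unlike from 2892 to 3499 (3776 with all, 5461 without KFs replicate 3).

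Little sharing by replicate number was seen: deviations from the group means of HFc and TFc libraries of the same number correlated at 0.004, 0.022 and 0.01 across genes, and not every library correlated best with its own number. With group means of 3 libraries, such correlations cannot show whether libraries of the same number shared an animal or a batch. With the number as a block, 3181 genes were called, 1356 higher and 1825 lower, of which 3134 had the same call without it.

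Levels near 3 counts per library, as for cluster D of the *Hox* genes, are limited by depth. Changes close to the fold limit were called in part in the simulated counts described with the processing.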

Other observations

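Genes of fat cells and lipid storage were mixed, with 3 of 19 higher and 6 lower in HFc (15.8% and 31.6%, against 8.24% and 11.3% over all genes). *Cebpa*, a factor of fat cell formation, averaged 0.648 CPM in HFc and 21.9 CPM in TFc (log2 -5.05, adjusted p = 9.08e-10), and its partner *Pparg* 1.74 against 4.57 CPM (log2 -1.39, adjusted p = 0.000772). *Scd1*, which makes unsaturated fatty acids, was lower at 149 against 418 CPM (log2 -1.49), and *G0s2*, an inhibitor of lipid breakdown, higher at 25 against 4.35 CPM (log2 2.52, adjusted p = 0.00333). Of 24 genes of sterol synthesis and uptake, 1 was higher and 1 lower in HFc, and the synthesis enzymes were not called.

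Of 20 imprinted growth genes, 2 were higher (10%, against 8.24% over all genes) and 4 lower (20%, against 11.3%) in HFc. When the fit held the cultured libraries only, 7 were lower. Beside *Dlk1*, *Plagl1*, which slows growth, averaged 2.65 against 29.1 CPM (log2 -3.45, adjusted p = 7.89e-05) and the cell cycle inhibitor *Cdkn1c* 0.309 against 2.5 CPM (log2 -2.94, adjusted p = 0.00388), and *Peg10* was higher at 397 against 133 CPM (log2 1.58, adjusted p = 4.28e-06). The noncoding RNA *Meg3*, from the same imprinted region as *Dlk1*, stood at 361 and 644 CPM (log2 -0.83) and was not called. Of 22 targets of p53 and *Cdkn2* genes, 5 were higher and 2 lower (2 higher with libraries scaled by their totals alone). *Pmaip1*, which favours cell death, averaged 45.7 against 12.8 CPM (log2 1.84, adjusted p = 7.9e-07) and the growth inhibitor *Cdkn2b* 38.6 against 82.7 CPM (log2 -1.10, adjusted p = 0.000918), while *Cdkn1a*, the main p53 target in cell cycle arrest, differed by 0.27 on the log2 scale and was not called.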
